A study of Mus musculus with 12 samples.

Results

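Genes of fatty acid oxidation, ketone body formation and the nuclear receptor PPAR alpha were followed in mouse liver as a list of 33 named genes. Members were found by name, as the array spots other than controls whose gene name, updated through the transcript accession on the array, was on the list. All 33 had at least 1 probe, 47 probes on 83 spots in all, and all 33 were among the 19339 genes tested. The probe used for each member was well above background on all 12 arrays and saturated on none. No measured value of a gene entered the rule, but the list itself was chosen with earlier results of these data known. The list was read by step: the receptor gene itself (1 gene), uptake and activation (3), the carnitine shuttle (5), mitochondrial beta-oxidation (9), electron transfer (3), peroxisomal oxidation (7), omega oxidation (2), the ketogenic step (1) and other targets of the receptor (2).

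The livers came from 12 adrenalectomized C57BL/6 mice aged 11 weeks, which lacked their own adrenal glucocorticoid whatever the treatment. There were 4 groups of 3 animals: males and females given phosphate buffered saline, and males and females given dexamethasone, a synthetic glucocorticoid, i.p. at 1 mg/kg. Females were in diestrous 1, and livers were harvested 6 h after the injection. Animals with intact adrenals were not analysed here.

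Liver cells take up fatty acids, activate them with coenzyme A and pass long chains into mitochondria as carnitine esters, where beta-oxidation shortens them to acetyl-CoA and spare acetyl-CoA becomes ketone bodies. Peroxisomes begin the oxidation of very long and branched chains, and cytochrome P450 enzymes of the Cyp4a family oxidise the far, or omega, end of the chain. PPAR alpha binds fatty acids, pairs with a retinoid X receptor and raises transcription at all of these steps, most of all during fasting, when glucocorticoids are also high.

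Levels are log2 of the processed signal minus the log2 of the same array's 75th percentile, so that 0 is that percentile and a step of 1 is a factor of 2. They compare arrays for 1 probe and say nothing of 1 gene against another. Arrays had a 75th percentile of 578 to 1251 before scaling and 65.1 to 71.8% of their probes above background. Correlations over probes ran from 0.984 to 0.994 between arrays of a group and from 0.954 to 0.986 between groups. Each slide held 4 arrays of 3 or 4 groups. Within a slide and sex, however, vehicle came before dexamethasone in position, so position and treatment cannot be told apart. Every slide also began with its males and ended with its females. Differences between the sexes therefore cannot be separated from position. In RNA from whole tissue, fewer cells of a type and less RNA per cell cannot be told apart either.

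The promoters of 4 members are shown because the results turn on Pex11a, Acox2 and Ppara, and because Fabp1 alone among the members held a match to the receptor's own motif. Each is the 250 bases before the start site from RefSeq (GRCm38.p6), 5′ to 3′ on the strand of the gene. Capitals mark a motif match, on either strand.
Pex11a, chr7:79743132-79743381, minus strand: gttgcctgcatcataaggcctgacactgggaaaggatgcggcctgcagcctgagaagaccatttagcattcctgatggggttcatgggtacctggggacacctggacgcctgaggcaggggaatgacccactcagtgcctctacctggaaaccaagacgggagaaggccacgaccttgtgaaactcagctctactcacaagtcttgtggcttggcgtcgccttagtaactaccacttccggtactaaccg
Acox2, chr14:8259020-8259269, minus strand: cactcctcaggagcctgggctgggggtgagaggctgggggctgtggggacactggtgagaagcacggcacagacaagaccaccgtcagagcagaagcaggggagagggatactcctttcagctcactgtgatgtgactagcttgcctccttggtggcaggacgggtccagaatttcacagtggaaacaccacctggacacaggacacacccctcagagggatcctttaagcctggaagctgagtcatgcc
Ppara, chr15:85735526-85735775, plus strand: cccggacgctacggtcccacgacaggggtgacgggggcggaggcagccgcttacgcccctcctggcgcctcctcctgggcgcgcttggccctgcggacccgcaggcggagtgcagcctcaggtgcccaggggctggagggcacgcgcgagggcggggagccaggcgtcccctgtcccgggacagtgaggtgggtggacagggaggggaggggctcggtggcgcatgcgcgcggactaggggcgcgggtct
Fabp1, chr6:71199629-71199878, plus strand: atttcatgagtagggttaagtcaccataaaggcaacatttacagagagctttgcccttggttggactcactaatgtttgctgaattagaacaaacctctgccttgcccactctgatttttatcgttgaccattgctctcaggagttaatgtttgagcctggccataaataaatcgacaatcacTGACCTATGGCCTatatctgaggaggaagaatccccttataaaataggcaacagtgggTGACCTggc

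RefSeq windows of 300 bases, 250 before and 50 after the start, were found for 26 of the 33 members (28 windows). The PPAR response element was searched as AGGNCA repeated on 1 strand with 1 free base between, which 0.381% of all 32851 windows held. Fabp1 had it on the minus strand from 67 bases before the start, and the other 27 member windows did not. Its single site AGGTCA, which overlaps the longer motif, was in 6 of the 28 member windows (Acadm, Acadvl, Cd36, Cpt1a, Fabp1 and Slc27a2) and in 16.3% of all windows. A glucocorticoid response element, searched as GNACA and TGTNC with 3 free bases between, was in 0 of the 28 member windows and in 0.475% of all windows. The Pex11a, Acox2, Ppara and Crot windows held none of the 3.

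Dexamethasone raised 4 members and lowered 4 in males, and raised 5 and lowered 2 in females, spread over the receptor gene, uptake, the carnitine shuttle, peroxisomes, omega oxidation and single genes elsewhere. Pex11a and Acox2, both peroxisomal, rose in both sexes, and Ppara and Crot fell in both. In males Slc27a2 and Fabp1 also rose and Decr1 and Vnn1 fell. In females Cpt2, Crat and Cyp4a10 also rose. The 8 male calls are 24.2% of the members, against 22.5% of all genes tested (10.4% higher and 12.1% lower). The 7 female calls are 21.2%, against 13.7% of all genes (6.79% higher and 6.88% lower). Calls are an adjusted p under 0.05 by limma over all genes, and they measure only the spread between these animals.

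Over all 33 members the median difference was 0.01 in males, as over all genes (0.01), and 0.11 in females, where all genes had 0.02. Treated and control animals did not overlap for 13 members in males and 15 in females, against 43.5% and 30.9% of all genes. In the same direction in both sexes, 4 members (12.1%) passed, against 10.4% of all genes, and 0 passed in opposite directions. At an unadjusted p under 0.05, 9 members passed in males (27.3%, against 35.4% of genes) and 13 in females (39.4%, against 28.3%). Scaling moved the split of the calls. After quantile normalization it was 2 higher and 5 lower in males and 5 higher and 3 lower in females. After normexp background correction, which moved the median of all genes to 0.26 in males and 0.24 in females, it was 0 higher and 2 lower in males and 1 of each in females. Relative to the median of all genes, every called member kept its direction in every alternative run.

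**Figure D1:**
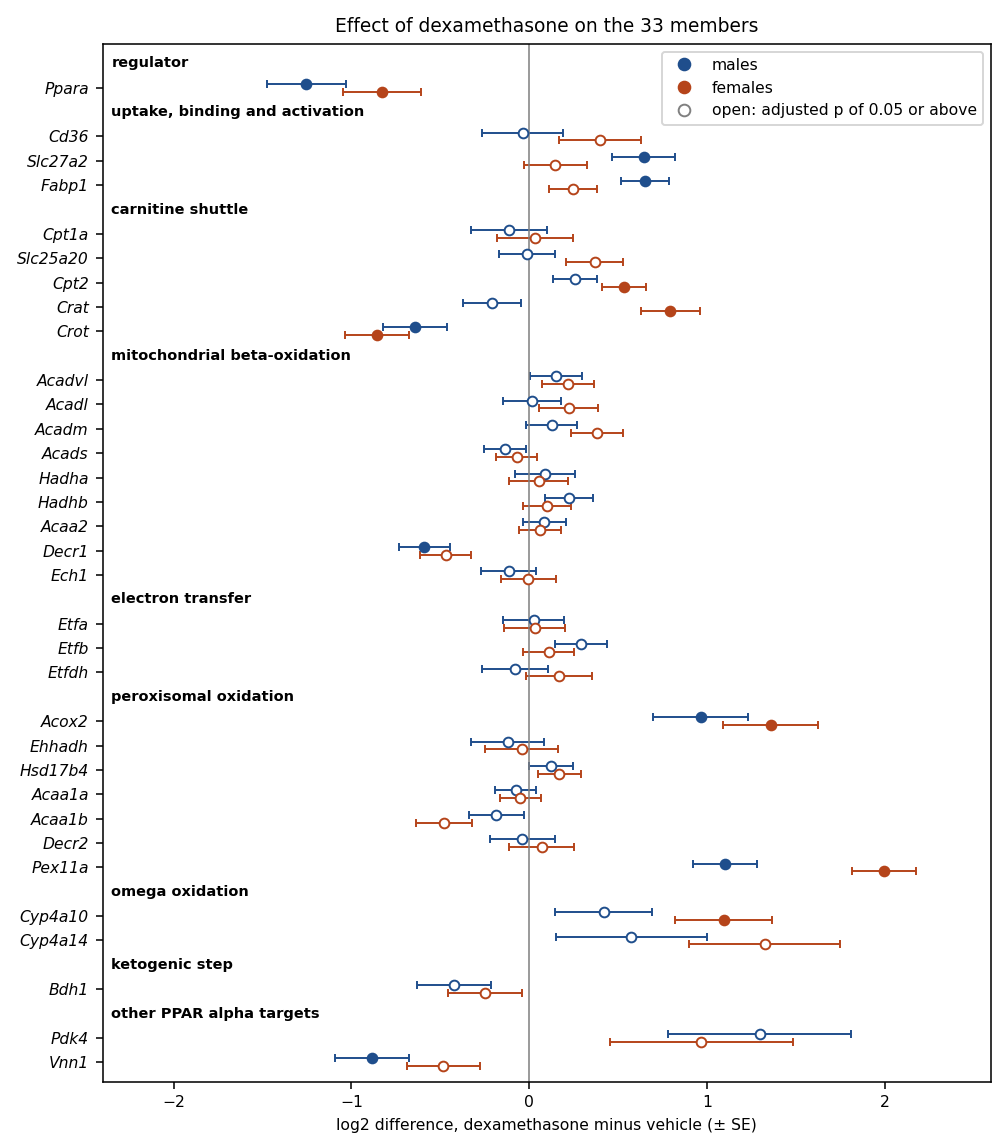
Difference between dexamethasone and vehicle for the 33 members (x axis, log2, with SE; y axis, genes by step; 3 animals per group), with filled points for an adjusted p under 0.05. Pex11a stands farthest to the right in females at 2.00, Ppara farthest to the left in males at −1.25, and the mitochondrial beta-oxidation genes lie between −0.59 and 0.38 in both sexes.

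Ppara, the gene of the receptor, fell in both sexes. Its level was 4.64, 4.58 and 4.33 in the male vehicle livers and 3.25, 3.27 and 3.26 in the male dexamethasone livers. The male groups were far apart, and the SD over the treated livers was 0.01. The difference was −1.25 ± 0.22 (SE, n = 3 per group), 2.38-fold lower (limma adjusted p = 0.00318), and it kept its call in all 22 alternative ways of processing the arrays, 12 of which leave out 1 array each. Another 1 of the 22 used the deposited series table, which holds the same values, so it could not differ. Among females, vehicle livers stood at 4.96, 4.14 and 5.05 and dexamethasone livers at 3.71, 4.11 and 3.84. The female groups did not overlap, but vehicle replicate 2 lay just above dexamethasone replicate 2, the female pair of slide 1. The female difference was −0.83 ± 0.22, 1.78-fold lower (adjusted p = 0.0326). Within slide 1 it was −0.03 and within slide 2 −1.19, while the male difference was −1.36 and −1.33 within slides 1 and 3. The female call was kept in 14 of the 22 alternatives. With the slide as a block it was lost (adjusted p = 0.0909), as with the replicate number as a block (0.0645). Normexp (0.0953) and a fit of only the female arrays (0.129) also ended it. So did leaving out female vehicle replicate 1 (0.11) or 3 (0.106) or female dexamethasone replicate 1 (0.1) or 3 (0.0704).

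**Figure D2:**
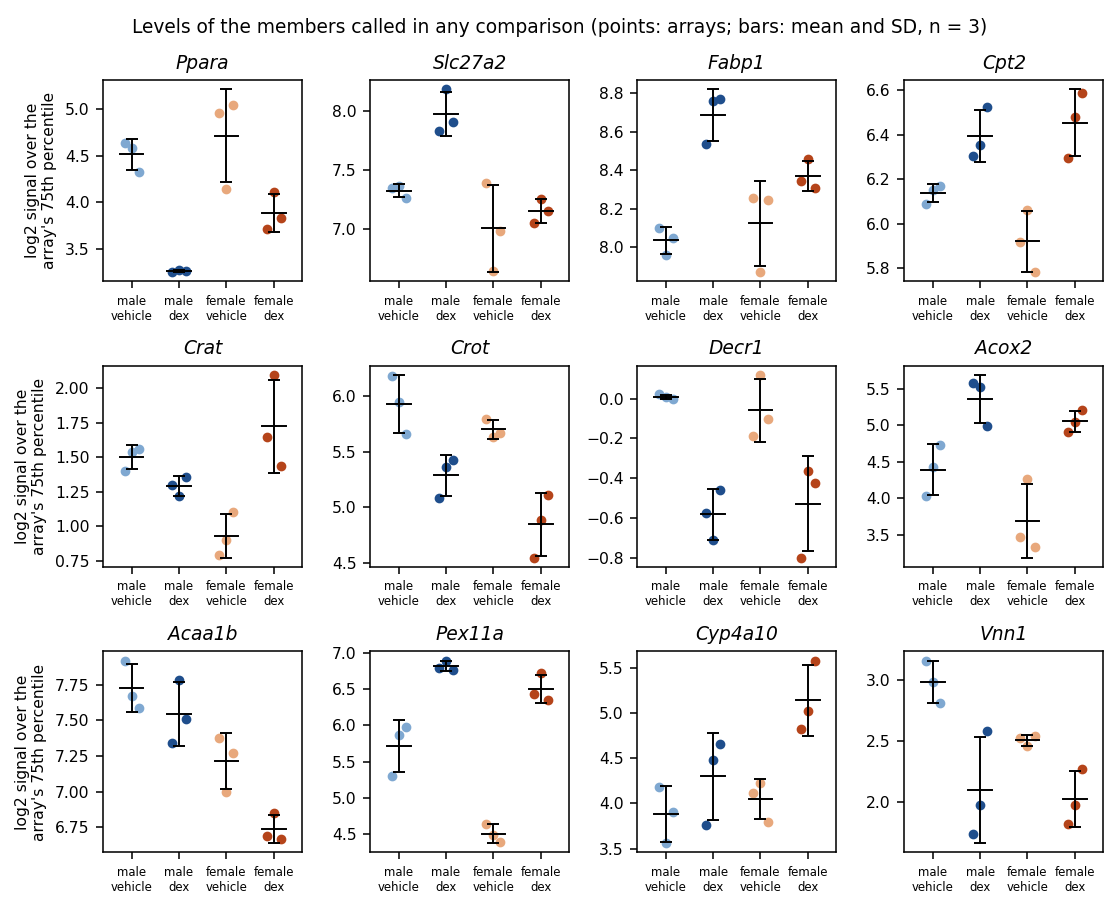
Level on each array (points; y axis, log2 signal over the array's 75th percentile) with mean and SD (bars, n = 3) in the 4 groups (x axis), for the 12 members called in any comparison; each panel has its own y axis. Ppara and Crot lie lower and Pex11a and Acox2 higher after dexamethasone in both sexes.

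Among the uptake genes, Slc27a2 and Fabp1 rose in males, and none of the 3 passed in females. Fabp1 encodes the liver fatty acid binding protein. It stood at 8.10, 7.96 and 8.05 in male vehicle livers and at 8.53, 8.76 and 8.77 in male dexamethasone livers, with no overlap. The difference was 0.65 ± 0.13, 1.57-fold (adjusted p = 0.00691). After quantile normalization it was 0.33 and not called (adjusted p = 0.106). In females the groups, 8.26, 7.87 and 8.25 against 8.34, 8.46 and 8.31, did not overlap either, and the difference was 0.24 ± 0.13 (adjusted p = 0.269).

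Slc27a2 encodes a fatty acid transport protein that activates very long chains. Its male levels were 7.35, 7.36 and 7.26 after vehicle and 7.83, 8.18 and 7.91 after dexamethasone, again apart. The difference was 0.65 ± 0.18, 1.56-fold (adjusted p = 0.0254). This rests on the brightest of 3 probes: the others gave 0.06 and 0.15 in males, the latter from a probe on the opposite strand above background on 4 arrays, and −0.08 and −0.22 in females, and the mean of the probes gave 0.28 in males (adjusted p = 0.468). The call was also lost after quantile normalization (0.38, adjusted p = 0.136) and without male vehicle replicate 1 (0.0707), 2 (0.0595) or 3 (0.0751) or male dexamethasone replicate 2 (0.0901). Female levels overlapped, at 7.39, 6.65 and 6.98 against 7.05, 7.26 and 7.15 (0.15 ± 0.18, adjusted p = 0.653). Cd36, the plasma membrane fatty acid translocase, differed by −0.04 ± 0.23 in males (adjusted p = 0.935) and 0.40 ± 0.23 in females (adjusted p = 0.289), and a second probe turned the male sign to 0.05. Beside these rises, 4 of 6 hepatocyte markers tested rose in males and 3 in females and 0 fell, and the summed marker signal over the 75th percentile was 917 to 979 and 1301 to 1424 in male vehicle and treated livers and 876 to 981 and 1111 to 1212 in the female ones. Markers of other cell types moved as well. In males 2 of 4 B cell, 3 of 6 stellate cell, 1 of 7 Kupffer cell and 2 of 6 endothelial markers fell and 1 endothelial marker rose; in females 2 of 4 B cell markers and 1 endothelial marker fell, 1 endothelial marker rose, and 0 stellate and 0 Kupffer cell markers passed. The summed B cell signal went from 0.737 to 1.17 in male vehicle livers to 0.211 to 0.361 in treated ones, and from 0.729 to 1.83 to 0.270 to 0.590 in females. The Kupffer cell sum was 54.9 to 90.6 against 37.5 to 50.8 in males and 86.3 to 132 against 56.8 to 110 in females. The stellate cell sum was 37.1 to 43.0 against 33.1 to 33.9 in males and 41.7 to 47.5 against 46.9 to 52.9 in females. The part of these cell types in the results was not tested.

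In the carnitine shuttle, Crot fell in both sexes, Cpt2 and Crat rose in females, and Cpt1a did not pass in either. Crot is the peroxisomal carnitine octanoyltransferase, which hands shortened chains on toward mitochondria. Its levels were 5.80, 5.63 and 5.67 in female vehicle livers and 4.55, 4.89 and 5.11 in female dexamethasone livers. The groups stood apart, with a difference of −0.85 ± 0.18, 1.81-fold lower (adjusted p = 0.0121), called in all 22 alternatives. In males it went from 6.18, 5.95 and 5.66 to 5.08, 5.36 and 5.42, also without overlap. That difference was −0.64 ± 0.18, 1.56-fold lower (adjusted p = 0.0275). The male call was lost with the slide as a block (adjusted p = 0.0587) and without male vehicle replicate 1 (0.115) or 2 (0.0737) or male dexamethasone replicate 1 (0.0898) or 2 (0.0557). A dimmer Crot probe fell more, by 1.54 in males (adjusted p = 0.00704) and 1.14 in females (adjusted p = 0.0409) on the log2 scale. For such further probes, here and below, p was adjusted over all probes kept, not over genes.

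Crat, carnitine acetyltransferase, buffers acetyl-CoA as acetylcarnitine. Female levels were 0.79, 0.90 and 1.10 after vehicle and 1.64, 2.10 and 1.44 after dexamethasone, all treated livers above all controls. The difference was 0.79 ± 0.17, 1.73-fold (adjusted p = 0.0116), and it kept its call without any single array. It was 1.20 within slide 1 and 0.75 within slide 2, and it was not called when only the female arrays entered the fit (adjusted p = 0.076). Male levels lay in the other order, 1.40, 1.54 and 1.56 after vehicle and 1.30, 1.22 and 1.36 after dexamethasone, but the difference of −0.21 ± 0.17 was not called (adjusted p = 0.414).

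Cpt2 encodes the inner carnitine palmitoyltransferase, which returns the chain to coenzyme A inside the mitochondrion. It stood at 5.92, 6.06 and 5.78 in female vehicle livers and at 6.29, 6.48 and 6.59 in female dexamethasone livers, without overlap. The difference was 0.54 ± 0.12, 1.45-fold (adjusted p = 0.0186). The slide as a block ended that call (adjusted p = 0.0599), as did leaving out female vehicle replicate 1 (0.0552) or 3 (0.0652) or female dexamethasone replicate 2 (0.0572). Male levels, 6.09, 6.15 and 6.17 against 6.30, 6.36 and 6.52, did not overlap, and their difference was 0.26 ± 0.12 (adjusted p = 0.169).

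Cpt1a, whose product on the outer membrane sets the rate of entry, ran from 4.34 to 5.16 over all 12 livers, and its groups overlapped. Its difference was −0.11 ± 0.21 in males (95% interval −0.59 to 0.36, adjusted p = 0.758) and 0.03 ± 0.21 in females (−0.44 to 0.51, adjusted p = 0.946). Slc25a20, the carnitine-acylcarnitine carrier, differed by −0.01 ± 0.16 in males (adjusted p = 0.97) and by 0.37 ± 0.16 in females (adjusted p = 0.156).

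Of the 9 mitochondrial beta-oxidation genes, 1 passed in males, lower, and 0 passed in females; the medians were 0.09 and 0.06. Decr1, the dienoyl-CoA reductase that unsaturated chains need, was the gene that fell. Male vehicle livers lay at 0.02, 0.01 and 4.77e-05 and dexamethasone livers at −0.58, −0.71 and −0.46. All treated males were below all controls, by −0.59 ± 0.14, 1.51-fold lower (adjusted p = 0.0148). The call was lost without male vehicle replicate 1 (0.0544) or male dexamethasone replicate 2 (0.0548), and a second probe gave −0.65 (adjusted p = 0.0145). Female levels were −0.19, 0.12 and −0.10 after vehicle and −0.80, −0.36 and −0.42 after dexamethasone, again apart. Their difference of −0.47 ± 0.14 missed the threshold (adjusted p = 0.0548), and it passed with array weights (−0.56, adjusted p = 0.0174) and when only probes detected on each of the 12 arrays were tested (0.0466).

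The other 8 cover the spiral of the chain: Acadvl, Acadl, Acadm and Acads are the dehydrogenases for very long, long, medium and short chains, Hadha and Hadhb the subunits of the trifunctional protein, Acaa2 the thiolase, and Ech1 an isomerase for unsaturated chains. Their male differences ran from −0.13 (Acads) to 0.22 (Hadhb, adjusted p = 0.268), inside 95% intervals that reached no lower than −0.46 and no higher than 0.52. Female differences ran from −0.07 (Acads) to 0.38 (Acadm, adjusted p = 0.109), with intervals from −0.35 to 0.70. A change as large as that of Decr1 in males lies outside the male intervals of these 8. The dimmest of 3 Hadha probes, above background on 8 arrays, had the other sign in males (−0.11, adjusted p = 0.835). The 3 electron transfer genes, Etfa and Etfb for the flavoprotein and Etfdh for its dehydrogenase, did not pass either. Etfb had the largest difference of them, 0.29 in males (adjusted p = 0.177), and the groups of all 3 overlapped in both sexes.

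Among the 7 peroxisomal genes, Pex11a and Acox2 rose in both sexes and the other 5 passed in neither, with medians over the 7 of −0.04 in males and 0.07 in females. Pex11a encodes a membrane protein of peroxisome elongation and division, and its probe lies at chr7:75606703-75606762 (mm7). Female vehicle livers stood at 4.64, 4.48 and 4.38 and female dexamethasone livers at 6.43, 6.72 and 6.35. Every treated female lay far above every control. The difference was 2.00 ± 0.18, 3.99-fold (adjusted p = 0.000222), called in all 22 alternatives. In males the level went from 5.31, 5.87 and 5.98 to 6.80, 6.90 and 6.76, without overlap. The male difference was 1.10 ± 0.18, 2.14-fold (adjusted p = 0.00221), and it kept its call in 21 of 22 alternatives, all but normexp. Within slides it was 1.59 and 0.91 in males and 2.24 and 1.75 in females.

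Acox2 is the peroxisomal oxidase for branched chains and for the side chain of bile acid precursors. In females it stood at 3.47, 4.27 and 3.34 after vehicle and at 4.91, 5.04 and 5.20 after dexamethasone. All treated females were above all controls, by 1.36 ± 0.27, 2.57-fold (adjusted p = 0.00904). In males it stood at 4.03, 4.43 and 4.73 after vehicle and at 5.57, 5.53 and 4.98 after dexamethasone, with no overlap. The male difference was 0.97 ± 0.27, 1.95-fold (adjusted p = 0.0261). It was 1.49 within slide 1 and 0.85 within slide 3, and the call was lost without male vehicle replicate 1 (0.107) or 2 (0.0619) or male dexamethasone replicate 1 (0.0802) or 2 (0.0827).

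The remaining peroxisomal genes were Ehhadh and Hsd17b4, the bifunctional enzymes of the L and D forms, Decr2, the peroxisomal dienoyl-CoA reductase, and the thiolases Acaa1a and Acaa1b. Ehhadh, a classical target of PPAR alpha, differed by −0.12 ± 0.21 in males (adjusted p = 0.735) and −0.04 ± 0.21 in females (adjusted p = 0.928). Acaa1b went from 7.37, 7.0 and 7.27 to 6.69, 6.85 and 6.67 in females. Those groups did not overlap, but the difference of −0.48 ± 0.16 was not called (adjusted p = 0.0681). It passed after quantile normalization (−0.64, adjusted p = 0.0142), with array weights (0.0189) and without female vehicle replicate 2 (0.0468). In males the difference was −0.18 ± 0.16 (adjusted p = 0.449).

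Acaa1a had 3 probes, which gave different answers. The brightest, at chr9:119030443-119030499 (mm7), differed by −0.08 ± 0.11 in males (adjusted p = 0.697) and −0.05 ± 0.11 in females (adjusted p = 0.833). A second probe, which spans 1221 bases of genome on the plus strand (chr9:119026729-119027949, mm7), was lower after dexamethasone by −0.56 in males (adjusted p = 0.00699) and −0.44 in females (adjusted p = 0.0334). The third is not described here. The mean of the 3 gave a male difference of −0.35 that passed (adjusted p = 0.0444). Acaa1a and Acaa1b are near-identical copies, so their probes may share signal and the split between them is uncertain.

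Of the omega hydroxylases, Cyp4a10 rose in females. These enzymes are the textbook readout of PPAR alpha activity in mouse liver. Female Cyp4a10 stood at 4.12, 4.22 and 3.80 after vehicle and at 4.82, 5.03 and 5.58 after dexamethasone, without overlap. The difference was 1.09 ± 0.27, 2.13-fold (adjusted p = 0.025). It was 0.80 within slide 1 and 1.08 within slide 2, and not called with the slide as a block (adjusted p = 0.0636). The call was also lost without female vehicle replicate 1 (0.0625) or 3 (0.0826) or female dexamethasone replicate 2 (0.0534) or 3 (0.0703). Male levels of 4.18, 3.56 and 3.90 against 3.76, 4.48 and 4.66 overlapped. Their difference was 0.42 ± 0.27 (adjusted p = 0.311), and the other probes gave 0.06 and −0.01.

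Cyp4a14 passed in neither sex. In females it stood at 5.81, 6.99 and 6.08 after vehicle and at 7.27, 7.78 and 7.81 after dexamethasone. The groups did not overlap, and the difference was 1.33 ± 0.43 (adjusted p = 0.064). Without female vehicle replicate 2, the highest control, it was 1.68 and passed (adjusted p = 0.0358), as it did without male dexamethasone replicate 1 (0.0268) or 3 (0.0429), whose spread enters the shared error. Male levels of 6.42, 5.87 and 5.84 against 5.65, 6.81 and 7.40 overlapped (0.58 ± 0.43, adjusted p = 0.379). Cyp4a10 and Cyp4a14 belong to a family of close copies, and signal shared between them is uncertain.

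Bdh1, which interconverts the main ketone bodies, was the ketogenic member. Male levels were 6.52, 6.26 and 6.29 after vehicle and 5.53, 6.28 and 5.98 after dexamethasone, and 1 treated liver lay among the controls. The difference was −0.42 ± 0.21 (adjusted p = 0.174). It passed after quantile normalization (−0.61, adjusted p = 0.0346), and a second probe gave −0.87 (adjusted p = 0.0362). Female levels of 6.74, 6.27 and 6.61 against 6.16, 6.14 and 6.57 overlapped too (−0.25 ± 0.21, adjusted p = 0.491).

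The other targets were Vnn1 and Pdk4. Vnn1, a pantetheinase that recycles part of coenzyme A, fell in males from 3.16, 2.98 and 2.81 to 1.74, 1.98 and 2.58. The groups did not overlap, and the difference was −0.88 ± 0.21, 1.85-fold lower (adjusted p = 0.0127). The call was lost without male vehicle replicate 1 (0.0572). Females went from 2.52, 2.45 and 2.54 to 1.82, 1.98 and 2.27, also apart, but the difference of −0.48 ± 0.21 was not called (adjusted p = 0.157).

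Pdk4, a kinase that shuts pyruvate out of oxidation, stood at −0.95, −1.47 and −1.40 in male vehicle livers and at −0.10, 0.23 and −0.06 in male dexamethasone livers. The male groups did not overlap, and the difference was 1.30 ± 0.52, 2.46-fold, with an adjusted p of 0.0973. In females the levels were −0.97, −1.29 and −0.46 against −0.44, −0.95 and 1.56. Female dexamethasone replicate 3 lay far above the rest, and the groups overlapped (0.97 ± 0.52, adjusted p = 0.253). Without that array the male difference passed (adjusted p = 0.00417), as it did when only the male arrays entered the fit (adjusted p = 0.0063).

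The female effect of dexamethasone did not differ from the male effect for any of the 33 members, and 1 gene (0.00517%) did over the whole array. Crat came closest among the members, with a female effect higher by 1.00 ± 0.23 (95% interval 0.49 to 1.52, unadjusted p = 0.00139, limma adjusted p = 0.475). Pex11a was next, higher by 0.90 ± 0.25 (0.34 to 1.46, unadjusted p = 0.00497, adjusted p = 0.679). At an unadjusted p under 0.05, these 2 members (6.06%) and 5.34% of all genes passed. For Slc27a2 and Fabp1, called in males alone, the female effect was lower by −0.50 (−1.05 to 0.06) and −0.41 (−0.83 to 0.01), neither of them called (adjusted p = 0.989 and 0.959). With no filter on dim probes the Crat difference passed (adjusted p = 0.0326), in a fit where 2278 genes of 27635 did.

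Under vehicle, 1 member, Pex11a, differed between the sexes, against 1.97% of all genes (0.657% higher and 1.31% lower in females). It was lower in females, 4.50 ± 0.13 against 5.72 ± 0.36 in males (SD, n = 3 each), with no overlap. The difference was −1.21 ± 0.18, 2.32-fold (adjusted p = 0.00626), and it was −0.82, −1.33 and −1.49 within slides 1, 2 and 3. It was not called when only the vehicle arrays entered the fit (adjusted p = 0.0546). The median of the members was −0.16, against −0.05 over all genes. The sexes did not overlap for 9 members, against 20% of all genes. Crat (−0.57, adjusted p = 0.135), Acox2 (−0.70, adjusted p = 0.271) and Acaa1b (−0.51, adjusted p = 0.152) were the next largest of the peroxisomal and shuttle genes, and none of these 3 passed. Acaa1a did not pass on its brightest probe (−0.28, adjusted p = 0.319), but its second probe was lower in females (−0.61, adjusted p = 0.0276).

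After dexamethasone, Slc27a2 and Acaa1b were lower in females than in males, 2 members (6.06%) against 5.81% of all genes (3.27% higher and 2.53% lower in females). Acaa1b stood at 6.69, 6.85 and 6.67 in females and at 7.34, 7.78 and 7.51 in males, without overlap. The difference was −0.81 ± 0.16, 1.75-fold (adjusted p = 0.0154), and −0.93 within slide 1. Its call was lost with the slide as a block (adjusted p = 0.0943) and without male dexamethasone replicate 2 (0.0537) or female dexamethasone replicate 1 (0.0608). The brightest Acaa1a probe did not pass (−0.25, adjusted p = 0.231), while its second probe (−0.49, adjusted p = 0.0408) and the mean of its probes (−0.46, adjusted p = 0.0379) were lower in females. Slc27a2, with the levels given above, differed by −0.82 ± 0.18, 1.76-fold (adjusted p = 0.0259), and −0.92 within slide 1; its second probe gave −0.43 (adjusted p = 0.266). That call was lost with the slide as a block (adjusted p = 0.114), after quantile normalization (0.0506) and without male dexamethasone replicate 2 (0.0883) or 3 (0.0538) or female dexamethasone replicate 1 (0.0942) or 2 (0.0558).

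Pex11a, at 6.50 ± 0.20 in treated females and 6.82 ± 0.07 in treated males, no longer passed (−0.32 ± 0.18, adjusted p = 0.328). The Cyp4a members lay higher in treated females, by 0.84 for Cyp4a10 (limma adjusted p = 0.102) and 1.00 for Cyp4a14 (adjusted p = 0.203), and neither passed. Cyp4a10 passed after quantile normalization, at 0.93 (adjusted p = 0.0451). The member median was 0.00, against −0.05 over all genes, and 11 members did not overlap, against 26.5% of all genes. After quantile normalization the calls were 1 higher and 1 lower. Other cell types also differed by sex: the summed erythroid markers were 22.8 to 35.6 in male livers of both treatments and 2.92 to 8.24 in female ones, and the adipocyte sum was 7.67 to 34.5 against 0.429 to 2.70, with Adipoq, Lep and Retn not above background. Their part in the sex differences was not tested.

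**Figure D3:**
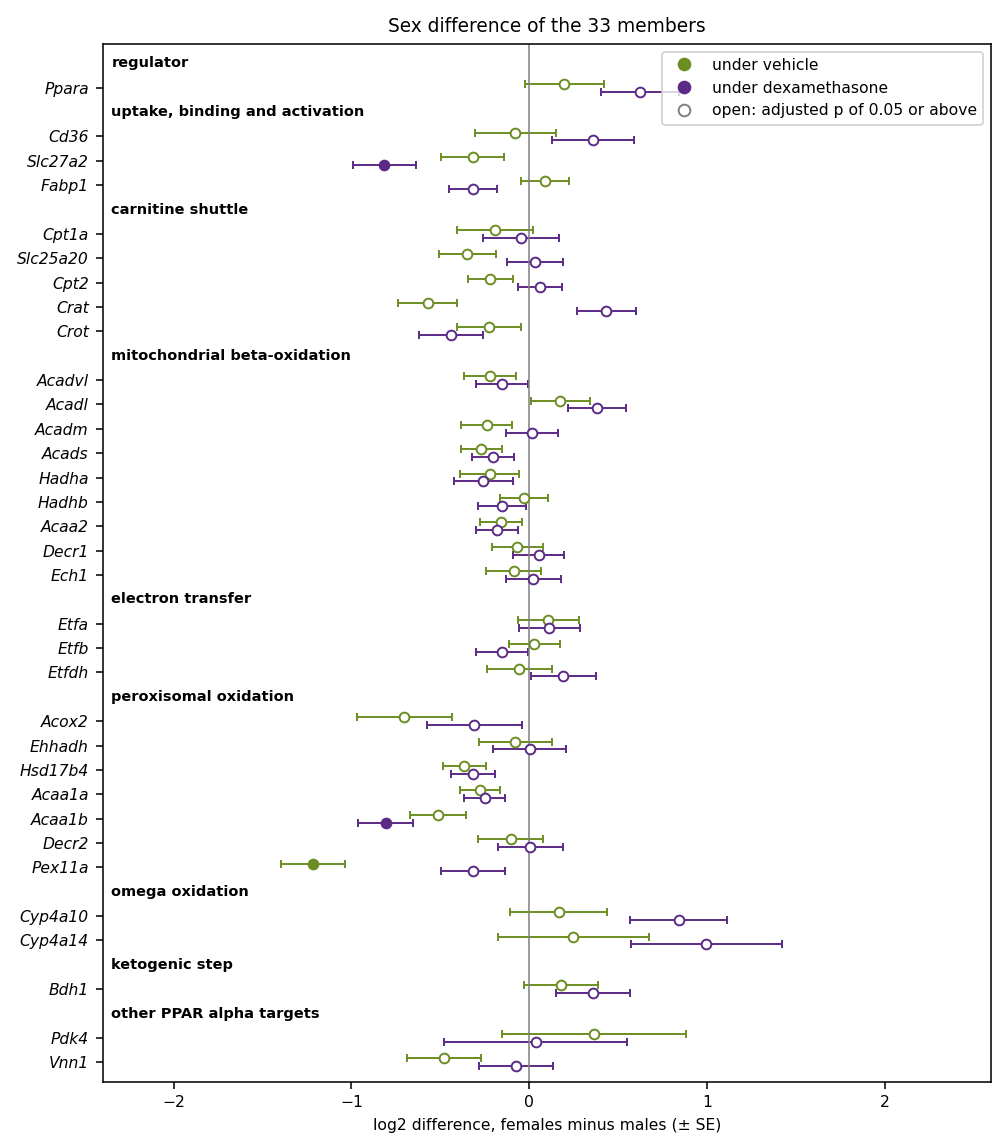
Difference between females and males for the 33 members under vehicle and after dexamethasone (x axis, log2, with SE; y axis, genes by step; 3 animals per group), with filled points for an adjusted p under 0.05. Pex11a under vehicle (−1.21) and Slc27a2 (−0.82) and Acaa1b (−0.81) after dexamethasone are the filled points.

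A second list of 69 genes of the same steps, 67 of them tested, holds enzymes and regulators that the 33 leave out. Dexamethasone raised 11 of them and lowered 12 in males, leaving 44 that did not pass, where 22.5% of all genes passed (10.4% higher and 12.1% lower). It raised 12 and lowered 9 in females, leaving 46, where 13.7% of all genes passed (6.79% higher and 6.88% lower). Medians were −0.02 and −0.00. By step, 3 of 7 regulators rose in both sexes (Lpin1, Ppargc1a and Med1), and 0 of 9 mitochondrial beta-oxidation genes passed in either. Among 18 peroxisomal genes, Eci2 and Phyh rose and Abcd2, Acot4 and Nudt19 fell in males, while Eci2 rose and Abcd2, Acot4 and Nudt19 fell in females. Among 6 ketogenic genes, Slc16a6 rose in males, and Bdh2 fell in both sexes. Med1, Eci2, Phyh, Nudt19 and Slc16a6 are named here after their values were seen. Between the sexes, 2 genes of this list were higher and 4 lower in females under vehicle, where 1.97% of all genes passed. After dexamethasone 2 were higher and 7 lower in females, where 5.81% of all genes passed.

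Lipid droplet and coactivator genes were among those that rose. Lpin1, a phosphatidate phosphatase that also works as a coactivator of PPAR alpha, rose 10.6-fold in males (3.40 ± 0.59, adjusted p = 0.00293) and 13.5-fold in females (adjusted p = 0.00327). Plin5, which coats lipid droplets at mitochondria, rose 7.49-fold in males (adjusted p = 0.000348) and 11.9-fold in females (adjusted p = 0.000215). Angptl4, an inhibitor of lipoprotein lipase and a target of both receptors, rose 3.43-fold (adjusted p = 0.0037) and 3.32-fold (adjusted p = 0.00737). Ppargc1a, the coactivator PGC-1 alpha, rose 2.96-fold in males (adjusted p = 0.0332) and 4-fold in females (adjusted p = 0.0174). The Ppargc1a call was lost in males without male vehicle replicate 1 (0.0777), 2 (0.105) or 3 (0.057) or male dexamethasone replicate 1 (0.0951) or 2 (0.117), and in females without female vehicle replicate 2 (0.0504).

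Among genes that fell, Acsl3, a long-chain acyl-CoA synthetase, differed by −1.63 ± 0.25 in males (adjusted p = 0.0017) and −2.42 in females (adjusted p = 0.00041). Plin2, another droplet coat protein, fell in males (−1.72 ± 0.40, adjusted p = 0.0113) and was not called in females (−1.12, adjusted p = 0.0888), where it passed without male dexamethasone replicate 2 (0.0482) or 3 (0.0171). Acot3, a peroxisomal thioesterase, fell in both sexes (−5.24 ± 0.80 and −4.73, adjusted p = 0.00163 and 0.00489). Abcd2, a peroxisomal fatty acyl transporter, fell too (−2.57 ± 0.51 and −1.90, adjusted p = 0.0057 and 0.034), though after normexp the male sign turned (0.06, adjusted p = 0.953). Normexp also ended the male Acot3 call (−0.94, adjusted p = 0.405). Both were above background on 1 of 3 male dexamethasone arrays, so their male sizes are poorly measured. The female Abcd2 call was lost without female vehicle replicate 1 (0.111) or 3 (0.0825) or female dexamethasone replicate 1 or 2 (0.104 each).

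Acot4 fell in both sexes, by −1.17 ± 0.33 in males (adjusted p = 0.0287) and −1.60 in females (adjusted p = 0.0115). Its male call was lost without male vehicle replicate 1 (0.104) or 3 (0.0775) or male dexamethasone replicate 1 (0.0941) or 2 (0.103). Acot1 rose in females 6.45-fold (adjusted p = 0.0097), and its male difference of 1.34 (adjusted p = 0.101) passed without female vehicle replicate 2 (0.00745) or 3 (0.0493). In females 2 more omega hydroxylases rose, Cyp4a12a (1.39, adjusted p = 0.00316) and Cyp4a31 (1.11, adjusted p = 0.0293). The mean of the Cyp4a12a probes gave 0.32 (adjusted p = 0.472), and the Cyp4a31 call was lost without female vehicle replicate 3 (0.0959) or female dexamethasone replicate 2 (0.0694) or 3 (0.0831). Under vehicle Cyp4a12a was lower in females, at 2.31, 2.80 and 1.97 against 4.25, 4.18 and 4.57 in males, called in all 22 alternatives. After dexamethasone the females differed from the males by −0.83 (limma adjusted p = 0.0496), called in 8 of 22. The Acot and Cyp4a genes have close copies whose signals may mix.

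Bdh2, which also converts ketone bodies, was picked out after its values were seen. It fell by 0.36 in males (adjusted p = 0.0376) and 0.37 in females (adjusted p = 0.0476) on the log2 scale, and held in 8 and 5 of 22 alternatives. Leaving out any 1 of the 12 arrays ended the female Bdh2 call (0.0546 to 0.114), and any but male vehicle replicate 2, female vehicle replicate 2 or female dexamethasone replicate 3 ended the male call (0.05 to 0.14).

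**Figure D4:**
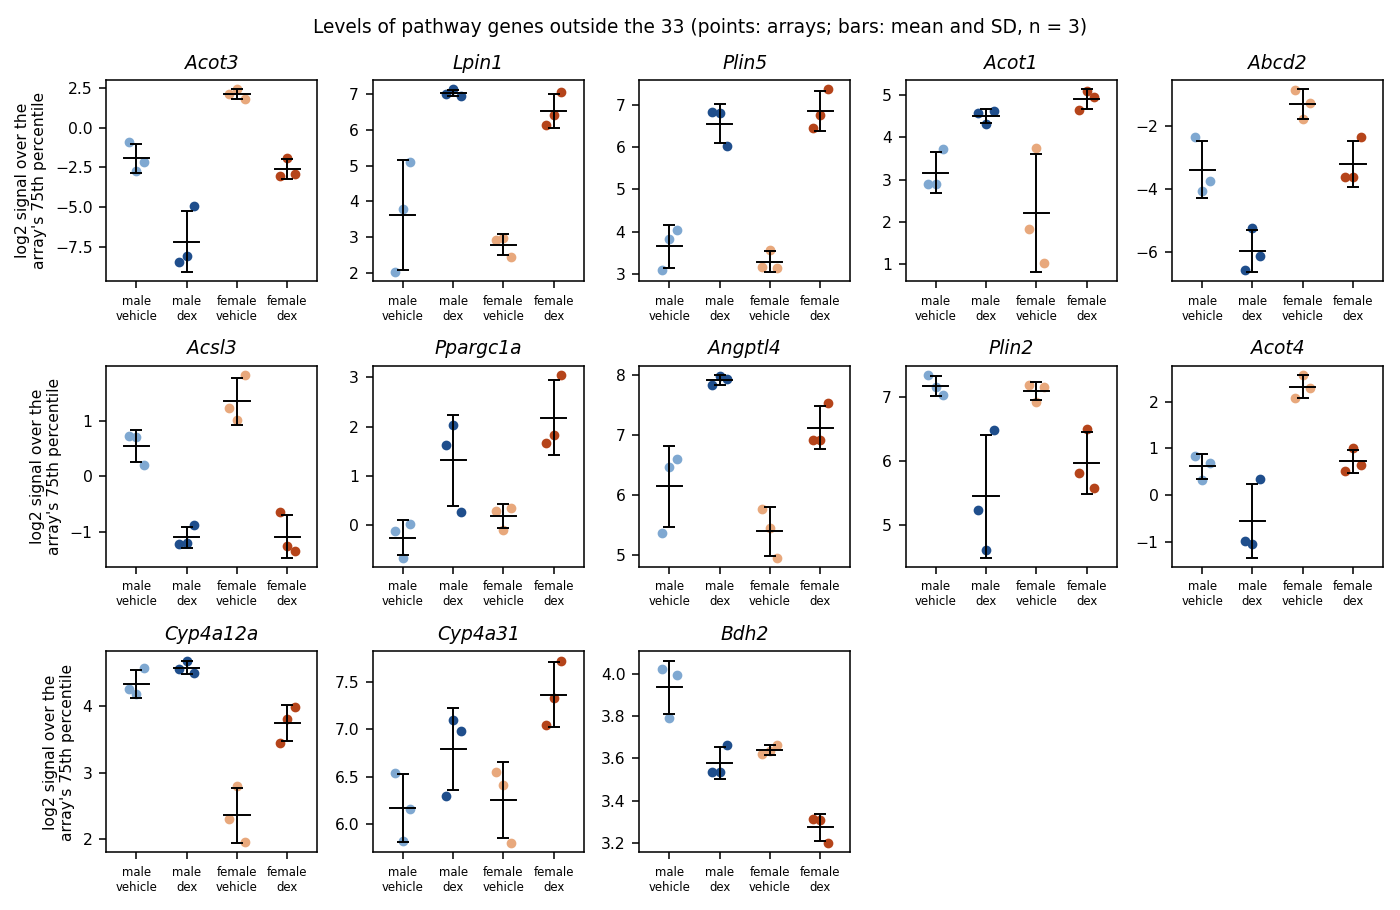
Level on each array (points; y axis, log2 signal over the array's 75th percentile) with mean and SD (bars, n = 3) in the 4 groups (x axis), for 13 genes of the second list; each panel has its own y axis. Lpin1, Plin5 and Angptl4 lie higher and Acsl3 and Bdh2 lower after dexamethasone in both sexes.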

How the data were processed

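Each array held Cy3-labelled RNA of 1 liver. The deposited intensity is the processed signal, which the authors' Agilent Feature Extraction 9.5 (per the submitters' processing notes) had background-corrected. The deposited series table holds the same values. Each log2 value was centred on its array's 75th percentile, outlier spots were left out, and the spots of a probe were averaged. A probe was kept if at least 1 group had it well above background on its 3 arrays (28840 probes), and each gene was given its brightest probe. Gene names came from accessions, symbols or synonyms in RefSeq tables, or else from the array. A fit over the 4 groups with limma 3.58.1 in R 4.3.3 (8 residual degrees of freedom) gave 5 comparisons, adjusted by the Benjamini-Hochberg method over 19339 genes. Values of further single probes of a gene came from the same fit run on probes, adjusted over the 28840 kept.

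The members and lists were chosen with earlier results of these data known. Every member is described. From the second list the 12 called genes with the largest difference in either sex were named, and some results are not reported here. Probe coordinates are those of the array (mm7), and no exon annotation of mm7 was used. The number of arrays limits the precision.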

Additional observations from a re-analysis of the deposited data

How the results depend on the processing

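There were 3 animals per group, and the number of arrays limits the precision. The alternatives changed 1 choice at a time and covered scaling, background correction, filters, probe choice, slide, pairing, array weights and each array left out. Single members kept their side of the threshold in 694 of 726 gene and setting pairs in males and 693 of 726 in females, over 22 refits. Most of these pairs belong to the 25 members in males and 26 in females that were not called in the main fit. In males 27 pairs lost a call and 5 gained one, and in females 23 lost a call and 10 gained one. No called member reversed. Of the 22 refits, 1 used the deposited series table, which holds the same values, so it could not differ. Outside the 33, the male difference of Abcd2 turned to 0.0642 after normexp. The cause was not tested for any of these shifts.

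The number of members called in males, 8, was 2 after normexp and ran from 3 to 9 without single arrays. The 7 called in females became 2 after normexp, 4 with the slide as a block, 4 when only the arrays of the groups compared were used and 11 with array weights, and ran from 4 to 9 without single arrays. The difference between the sexes' effects had 0 members called and 1 with no filter on dim probes. The 1 member that differed by sex under vehicle was lost (0) after normexp and with only the arrays compared. The 2 that differed by sex after dexamethasone became 0 after normexp, with the slide as a block and with only the arrays compared, and ran from 0 to 3 without single arrays.

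The members' median in males was −0.0949 after quantile normalization, −0.13 after normexp and 0.13 within slide 3 (−0.05 to 0.09 without single arrays). In females it was −0.0713 after normexp and −0.0855 within slide 2 (0.06 to 0.20 without single arrays). The median difference of effects ran from 0.0322 to 0.24 without single arrays, 0.24 being without female dexamethasone replicate 1. The median sex difference after dexamethasone was −0.14 with the slide as a block, −0.12 with array weights, −0.11 within slide 1, and −0.17 to 0.0326 without single arrays.

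The labels do not say whether replicate numbers pair the animals. Correlations of same-numbered deviations ran from −0.216 to 0.326. Differently numbered arrays were not compared, so these values cannot show whether the animals were paired. With the replicate block, 3 members rose and 3 fell in males, 5 rose and 1 fell in females, and 1 differed by sex after dexamethasone, while 3565 and 1984 genes were called over the array in males and females.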
